A study of Drosophila melanogaster with 24 samples.

Results

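The Adh region is a gene-rich stretch of the left arm of Drosophila melanogaster chromosome 2, named for its alcohol dehydrogenase gene. Near its ends lie kuz, which encodes a membrane metalloprotease of Notch signalling, and cact, which encodes the inhibitor of the Toll pathway. The study's list itself runs from B4 to chif. Its members here are all 229 probes that the study listed for the region, taken in the listed order, out of 14444 gene probes analysed on the array. Of these, 221 match a current gene, all on chromosome 2L, and they stand for 215 distinct genes because 6 genes have a pair of probes each. The other 8 probes have no current gene in the annotation used. Probes for Adh and Adhr were not on the list and are not analysed here.

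Each of 24 two-colour arrays set RNA of 1 genotype against a pool of wild-type Oregon R RNA of the same tissue, with 4 arrays for each of 3 genotypes in whole larvae and in wing imaginal discs, and with the dyes swapped on 2 of the 4. The null, su(Hw)/Df, carried the deletion Df(3R)ED5644 opposite a chromosome that has P[CaS X/K5.3] and su(Hw)v. The heterozygotes su(Hw)/+ and Df/+ carried 1 of these chromosomes each over Oregon-R. All larvae were nontubby and were taken at the soft white pre-pupal stage. Nulls came from a cross between the balanced mutant stocks and heterozygotes from outcrosses to Oregon R, so the second chromosomes that carry the region can differ between genotypes, and this cannot be told apart from the effect of the su(Hw) genotype. Labels give 10 or 20 larvae or 6 discs per extraction. Each tissue had 1 pool, so a test against the pool leaves out the pool's own spread.

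Su(Hw) is a zinc finger protein that binds DNA at many places in the genome and is best known for the insulator of the gypsy retrotransposon, which blocks an enhancer from reaching a promoter on its far side. A region with many listed Su(Hw) sites and neighbouring genes of unlike function therefore allows expression to be followed gene by gene along a chromosome when the protein is missing. The region also holds several clusters of related genes, among them the Nimrod genes, whose products on haemocytes bind bacteria or apoptotic cells.

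The study's table of matches to its Su(Hw) weight matrix gives 476 distinct 28-base sequences for the region, all on chromosome 2L. The matches are by sequence, and the study did not find all of them bound. The 4 shown were picked because they carry the commonest 10-base run of the table, marked in capitals, so their sharing it follows from the choice. All are on the direct strand, and the coordinates are those of the 20-base match inside each sequence in genome release 3.1:
ADH-594 (chr2L:14082802-14082821): ctgcgttGCATACTTTTaggcgcatcga
ADH-745 (chr2L:14234119-14234138): gtaggttGCATACTTTTgggaagcgaaa
ADH-1200 (chr2L:14688545-14688564): aaatgttGCATACTTTTagggatacacg
ADH-1585 (chr2L:15075047-15075066): taaagaaGCATACTTTTgggatgataac
Counted on both strands, the run in capitals was present in 32 of the 476 sequences (6.72%), as was TTGCATACTT, which overlaps it. The shorter GCATACTT, contained in both, was in 70 (14.7%) and TGCATA, which overlaps all of these, in 106 (22.3%). Which genes, exons or introns the matches lie in was not analysed here, since no annotation of that release was used.

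The su(Hw) probe itself followed the labels. Its log2 ratio to the pool lay between -3.36 and -2.19 on the null larval arrays and between -0.86 and -0.07 on the arrays of both larval heterozygotes. In discs it lay between -2.99 and -1.52 in the null and between -1.17 and 0.29 in the heterozygotes. Larval arrays held values for 128 to 184 members each and disc arrays for 51 to 157. In larvae 85 members had a value on all 12 arrays and 8 on none, and in discs 30 and 9. A member was tested where each genotype compared had at least 3 values, and called where the Benjamini-Hochberg adjusted p of limma, over all probes tested, was under 0.05.

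In larvae the member median of the region stayed near the pool, while many members lay away from it. A size of at least 0.5 was reached by 30.8% of tested members in the null, 32.3% in su(Hw)/+ and 23.6% in Df/+. Over all probes tested these shares were 27.4%, 26.9% and 21.5%. Of 146 members tested in the null against the pool, 17 were called higher and 24 lower, 28.1% in all, where 27.7% of all 9554 probes tested were called, 14.5% higher and 13.2% lower. Of 133 tested in su(Hw)/+, 17 were called higher and 25 lower (31.6%), where 28.3% of all probes were called, 14.6% higher and 13.7% lower. Of 140 tested in Df/+, 12 were called higher and 23 lower (25%), where 19.7% of all probes were called, 9.38% higher and 10.3% lower. The member medians of the log2 ratio were -0.01, 0.02 and -0.05, beside 0.03, 0.08 and -0.02 over all probes. The called shares of the null and su(Hw)/+ are close to those of the whole array, and that of Df/+ is somewhat above it. In each genotype more members were called lower than higher, whereas over all probes this held in Df/+ alone. A plain t-test of each genotype against 0 was also run where it had at least 2 values. It is not the CyberT test that the study used. At a size of at least 0.5 and p of 0.01 or less it called 10 of 177 members in null larvae (7.03% of all probes). It called 20 of 157 in su(Hw)/+ (8.77% of all) and 12 of 170 in Df/+ (5.43% of all), and after Benjamini-Hochberg adjustment 0, 8 and 0. The limma counts fell to 27 of 133 tested without null replicate 2 and to 20 of 119 without Df/+ replicate 2. They fell to 25 and 23 with only the null or only the Df/+ arrays in the fit. Counts over all probes fell too. Without these replicates they were 977 higher and 935 lower of 8379 in the null and 648 and 723 of 8524 in Df/+. With only the arrays of the genotype they were 719 and 641 of 9554 in the null and 634 and 707 of 9699 in Df/+. Of the 41, 42 and 35 calls in null, su(Hw)/+ and Df/+ larvae, 26, 27 and 21 passed in every refit without 1 array that tested them. The 15 null calls lost in at least 1 such refit were CG16853, TM9SF4, Acyp, rk, wb, CG15278, stc, esg, CG15258, CG15256, Mtr4, CG34168, CG31819, GMF and cni. Among genes named in the text, the same was true of CG8997, CG16853, CG4218, CG15282, CG4480, stc and EndoGI in su(Hw)/+ and of CG16853, CG15256, CG31819, CG31820, Vajk2, NimC1, ZnT35C, Uxt, Mtr4 and EndoGI in Df/+.

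**Figure D1:**
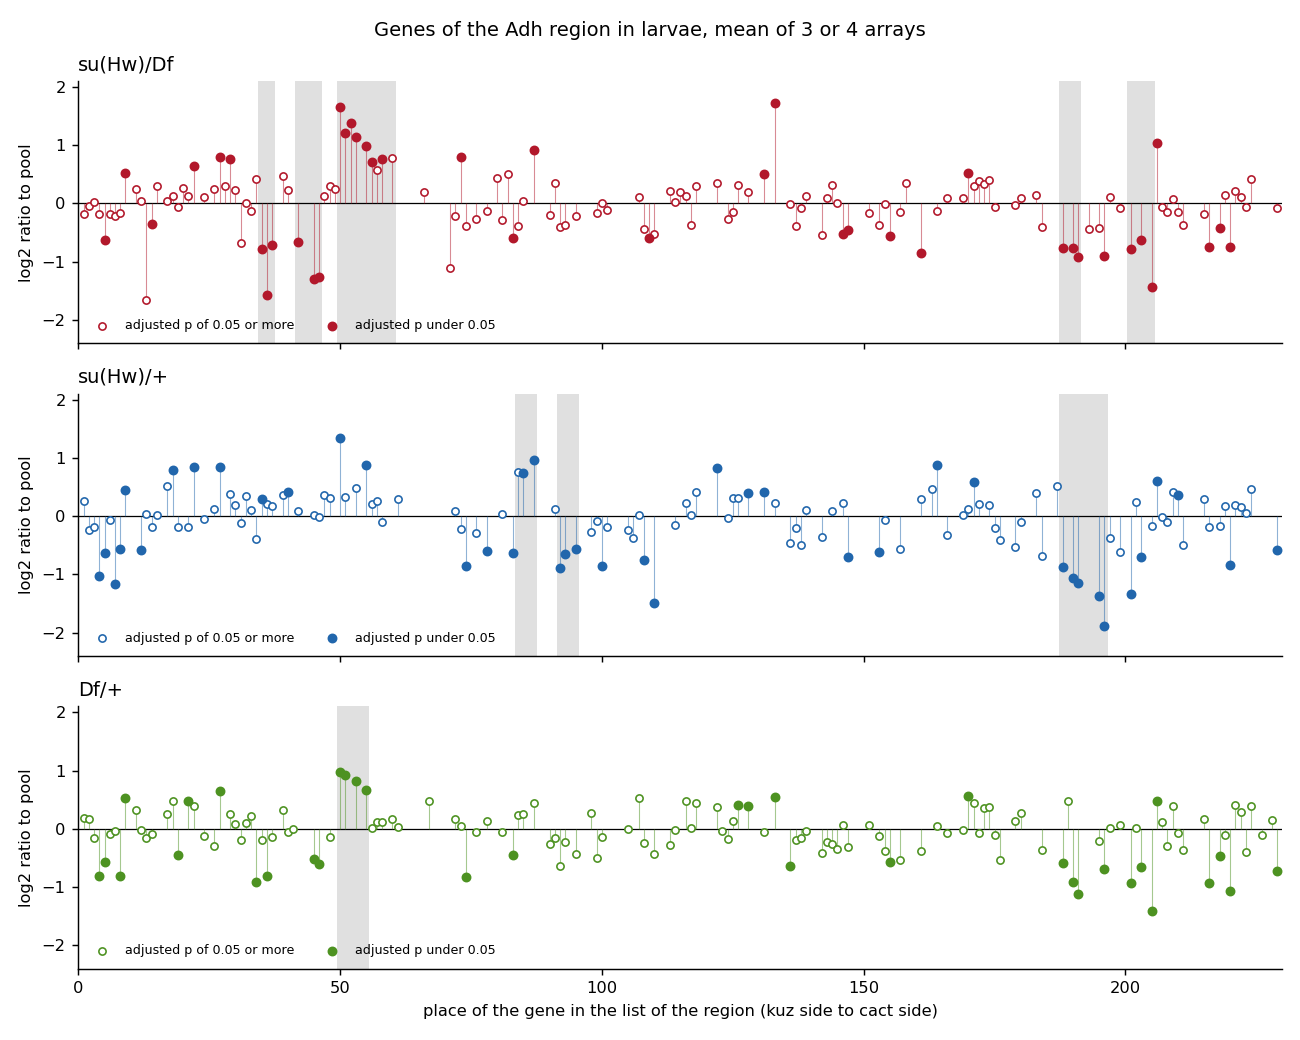
Mean log2 ratio to the wild-type pool in larvae (vertical axis) for the genes of the Adh region in listed order (horizontal axis), 1 panel per genotype, with filled points for adjusted p under 0.05 and grey bands for runs of at least 3 neighbours past 0.5 with the same sign. The null panel holds 5 such runs, the band from NimB2 to hll being the longest with 9 genes, while su(Hw)/+ holds 3 and Df/+ holds 1.

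The comparison that cancels the pool, the null against the mean of both heterozygotes, called 7 of 120 larval members (5.83%), where 2.84% of all 8197 probes tested were called. Of the 7, 2 were higher, with 1.09% of all probes, and 5 lower, with 1.76%. Lower in the null were CG8997, CG7916, CG7953, Vajk2 and Vajk3. Higher were NimC3, a phagocytic receptor of haemocytes, and ZnT35C, a zinc transporter. The 5 genes that were lower sit in 2 neighbouring groups, 3 in a row at places 35 to 37 of the list and a pair at 45 and 46.

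CG7916 had the largest fall of the first group. Its log2 ratios were -1.27, -1.04, -1.91 and -2.09 on the null arrays, 0.45, 0.31, 0.04 and 0.03 in su(Hw)/+ and -0.68, -0.50, -1.04 and -1.01 in Df/+. Every null array was below every su(Hw)/+ array, while the highest null and the lowest Df/+ array both stood at -1.04, and the Df/+ arrays were all below 0 (adjusted p = 0.00624 against the pool). The null minus the heterozygote mean was -1.28 ± 0.21 (SE, adjusted p = 0.00408).

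CG8997 gave -0.59, -0.85, -0.84 and -0.83 in the null, 0.25, 0.10, 0.46 and 0.38 in su(Hw)/+ and -0.21, -0.06, -0.22 and -0.29 in Df/+. All 4 null arrays lay below all 8 heterozygote arrays, with a difference of -0.83 ± 0.13 (SE, adjusted p = 0.00291). For CG7953 the values were -0.67, -0.88, -0.64 and -0.65, 0.01, 0.50, -0.16 and 0.35 and -0.45, 0.26, -0.17 and -0.21 in the same order. Its groups did not overlap either, and the difference was -0.73 ± 0.17 (SE, adjusted p = 0.0334), a call that was lost without any 1 null array, su(Hw)/+ replicate 4 or Df/+ replicate 4, and with centred arrays (adjusted p between 0.0143 and 0.101 over the alternatives). The fourth gene of this cluster, CG7968, had values on 2 larval arrays and was not tested. The 2 heterozygotes stood apart in the cluster: in su(Hw)/+ all 3 means were above 0, between 0.17 and 0.30, and in Df/+ all 3 were below, between -0.81 and -0.14, though Df/+ against su(Hw)/+ called none of them.

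Vajk2 and Vajk3 behaved alike. For Vajk2 the log2 ratios were -1.29, -1.03, -1.01 and -1.86 in the null, 0.02, 0.14, 0.04 and -0.12 in su(Hw)/+ and -0.41, -0.55, -0.31 and -0.82 in Df/+, a difference of -1.05 ± 0.17 (SE, adjusted p = 0.0045). For Vajk3 they were -1.19, -1.12, -1.13 and -1.57, -0.16, 0.25, 0.01 and -0.16 and -0.50, -0.50, -0.53 and -0.85, with -0.95 ± 0.15 (SE, adjusted p = 0.00298). In both genes the null arrays were the lowest, the su(Hw)/+ arrays lay around 0 and every Df/+ array was between them. Vajk1, the neighbour at place 44, had a value on 1 larval array. Acyp, an acylphosphatase gene at place 42, was also lower in the null against the pool, at -0.56, -1.21, -0.19 and -0.71 (mean -0.66, adjusted p = 0.025), but it lacked the Df/+ values needed for the comparison with both heterozygotes. This call was lost without null replicate 1, 2 or 4 and with only the null arrays in the fit (adjusted p up to 0.106).

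Midgut markers were low in null larvae, as these 5 genes were. Of 5 midgut protease markers 4 were on the array, 4 of 4 were called lower in null larvae against the pool and 3 of 4 against both heterozygotes, and the per-array median of the list lay between -1.7 and -1.22 in the null, -0.67 and -0.03 in su(Hw)/+ and -0.95 and 0.02 in Df/+. Against the pool 2 of 4 markers were called lower in su(Hw)/+ (list median -0.45) and 1 of 4 in Df/+ (list median -0.34). Of all probes 13.2%, 13.7% and 10.3% were called lower in null, su(Hw)/+ and Df/+ larvae. The su(Hw)/+ means were -0.65 for Jon65Aiii, -0.13 for Jon65Aiv, -0.25 for betaTry and -0.85 for alphaTry. In su(Hw)/+ CG8997, CG7916 and CG7953 had means above 0 and the Vajk genes lay around 0. In Df/+ all 5 genes had means below 0. The part of the midgut markers in the falls of CG8997, CG7916, CG7953, Vajk2 and Vajk3 was not tested. In whole larvae, fewer cells of a type and less RNA per cell cannot be told apart.

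ZnT35C, at place 133, had the largest mean of the members tested in null larvae. The null arrays gave 1.83, 1.77, 1.84 and 1.46, su(Hw)/+ gave 0.42, 0.57, -0.16 and 0.07 and Df/+ gave 0.41, 0.76, 0.65 and 0.35. All null arrays were above all heterozygote arrays, and the difference was 1.34 ± 0.16 (SE, adjusted p = 0.0005), which is 2.54-fold. The call held without any 1 array, and Df/+ was also higher than the pool (adjusted p = 0.0154). Its tested neighbours in the list, stc and Uxt, were not called against the heterozygotes. The transcription factor gene stc had means of 0.50, 0.42 and -0.05 in null, su(Hw)/+ and Df/+ larvae, the null and su(Hw)/+ called higher than the pool, and Uxt had -0.01, -0.46 and -0.64, of which Df/+ was called lower.

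**Figure D2:**
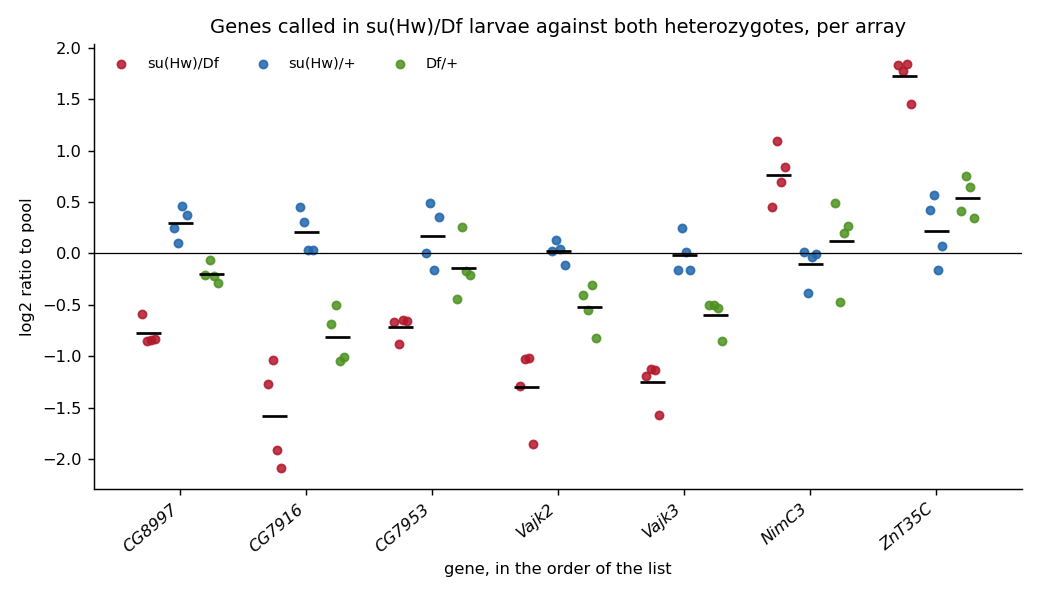
Log2 ratio to the pool on each larval array (points) and the mean of each genotype (black bars) for the 7 genes called in the null against both heterozygotes. The 4 null points lie apart from all heterozygote points for CG8997, CG7953, Vajk2, Vajk3 and ZnT35C, and touch or overlap the Df/+ points for CG7916 and NimC3.

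The longest stretch of neighbours on one side ran through the Nimrod cluster. In null larvae 9 tested members in a row, from NimB2 to hll, had mean log2 ratios between 0.57 and 1.66, and 7 of the 9 were called higher than the pool. The stretch spans 11 places, of which Cyp28a5 and lncRNA:CR31840 had too few values to be tested. In Df/+ the 4 tested genes NimB2, NimB4, NimC1 and NimC2 formed a run between 0.67 and 0.98, all called. In su(Hw)/+ NimB2 and NimC2 were called and no run formed.

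NimB2, a gene for a secreted Nimrod protein, was the highest of the stretch. It gave 2.02, 1.77, 2.17 and 0.68 in the null, 1.32, 1.24, 1.84 and 0.96 in su(Hw)/+ and 1.23, 0.71, 1.30 and 0.67 in Df/+, above 0 on all 12 arrays. Its mean was 1.66 ± 0.22 (SE, adjusted p = 0.000144) in the null, and the null and heterozygote arrays overlapped, with a difference of 0.50 ± 0.26 (SE, adjusted p = 0.377).

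NimB4, also a secreted member, had 1.06, 1.60, 1.52 and 0.64 in the null, 0.10, 0.46, 0.78 and -0.03 in su(Hw)/+ and 1.44, 0.27, 1.22 and 0.80 in Df/+. Here the null and Df/+ were each called higher than the pool (adjusted p = 0.00101 and 0.00768) and su(Hw)/+ was not (0.247, limma adjusted p), with overlapping arrays throughout. NimB5 was measured on 3 null arrays, at 1.33, 0.78 and 2.03, and was called at 1.38 ± 0.30 (SE, adjusted p = 0.0114).

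NimC1, a receptor with which larval haemocytes take up bacteria, had 1.48, 1.63, 0.70 and 0.77 in the null, 0.43, -0.28, 0.54 and 1.22 in su(Hw)/+ and 1.16, 0.63, 0.79 and 0.68 in Df/+. Its null and Df/+ means were called higher than the pool, and the arrays of the 3 genotypes overlapped. NimC2 varied little among arrays: 1.07, 0.87, 1.12 and 0.92 in the null, 0.75, 0.99, 0.84 and 0.93 in su(Hw)/+ and 0.84, 0.75, 0.60 and 0.50 in Df/+. All 12 values were above 0, all 3 genotypes were called, and the null differed from the heterozygotes by 0.22 ± 0.13 (SE, adjusted p = 0.426).

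NimC3 was the one gene of the cluster called against both heterozygotes. Its values were 0.45, 1.09, 0.69 and 0.84 in the null, 0.01, -0.38, -0.03 and -0.01 in su(Hw)/+ and 0.49, -0.47, 0.20 and 0.27 in Df/+, so that every null array was above every su(Hw)/+ array but 1 Df/+ array reached into the null range. The difference of 0.76 ± 0.19 (SE, adjusted p = 0.0477) was near the threshold and lost its call without null replicate 2, 3 or 4, any 1 su(Hw)/+ array or Df/+ replicate 3 or 4, and under 4 other settings (adjusted p between 0.0321 and 0.148 without 1 array).

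Genes between the Nimrod genes were also on the high side in the null. The receptor gene rk, whose product binds the hormone bursicon, had 0.65, 1.38, 0.97 and -0.16 with a mean of 0.71 (adjusted p = 0.0329), and the acyl-CoA synthetase genes bgm and hll had means of 0.57 and 0.78 on 3 arrays each that did not pass (adjusted p = 0.121 and 0.0904). The call of rk was lost without null replicate 1, 2 or 3. At the near end of the cluster the values fell off: both NimA probes and NimB1 had null means of 0.14, 0.29 and 0.24 and none was called. Probe sequences of these related neighbours were not compared here.

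Over all 10 Nimrod probes of the region, both NimA probes included, 6 of 9 tested were called higher in the null against the pool (median 0.99, with 0.03 over all probes), 2 of 7 in su(Hw)/+ and 4 of 6 in Df/+, and none was lower. Against both heterozygotes 1 of 6 was called, where 1.09% of all probes were called higher. Against the pool 14.5% of all probes were called higher in the null, 14.6% in su(Hw)/+ and 9.38% in Df/+. Haemocyte and fat body markers were also on the high side in these larvae. Of 10 haemocyte markers listed, 9 were on the array, of which 5 of 9 were called higher in the null against the pool, NimC1 being one of them, 2 of 9 in su(Hw)/+ and 1 of 7 in Df/+, and 0 of 7 were called in the null against both heterozygotes. The per-array median of the haemocyte list ranged from 0.68 to 1.43 in the null, 0.29 to 0.58 in su(Hw)/+ and 0.07 to 0.85 in Df/+. Pxn, PPO1 and PPO2 had null means of 1.21, 2.33 and 2.42, whereas Hml, eater and srp were at 0.44, 0.12 and 0.325 and not called. Of 6 fat body markers the 3 on the array (Lsp2, Fbp1 and Fbp2) were called higher in the null and in su(Hw)/+, 1 of the 3 was in Df/+, and 0 of 3 were called in the null against both heterozygotes. The per-array median of the fat body list ranged from 0.67 to 1.16 in the null, 0.49 to 0.88 in su(Hw)/+ and -0.29 to 0.43 in Df/+. The part of haemocytes or fat body in the Nimrod values was not tested.

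**Figure D3:**
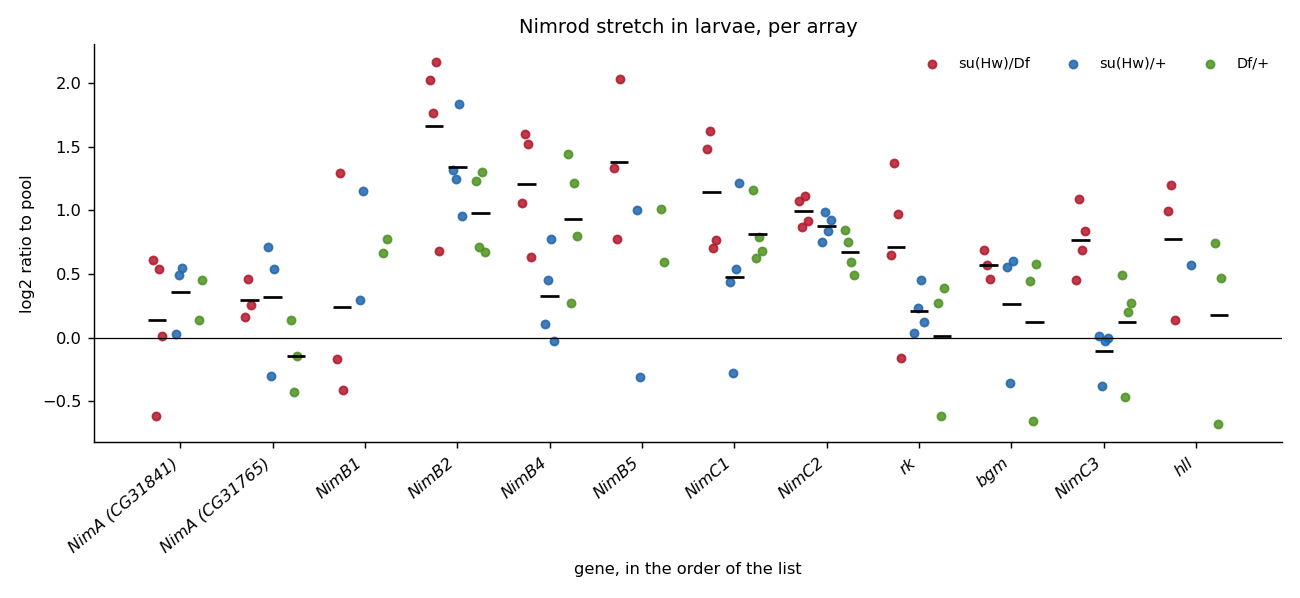
Log2 ratio to the pool on each larval array for the tested members of the Nimrod stretch in listed order, with black bars for means of at least 3 arrays. Values lie above 0 on all 12 arrays for NimB2 and NimC2, and the su(Hw)/+ points of NimC3 lie at or below about 0.

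Towards the cact side lay several uncharacterised genes that were low in all 3 larval genotypes, among others that were not. In su(Hw)/+ a run of 5 tested genes, CG13244, CG12448, CG18063, CG13245 and CG31820, lay between -1.88 and -0.87 and all 5 were called. In the null the first 3 of them formed a run between -0.92 and -0.77, and CG34168, CG31819 and PRL-1 formed another between -1.43 and -0.62, again with every gene called. The null call of CG31819 was lost in 5 of 9 refits without 1 array and under 3 other settings (adjusted p up to 0.0755), and that of CG34168 without null replicate 1 or 2 and with only the null arrays in the fit (adjusted p up to 0.0916). Between the runs BicC, a germline RNA-binding protein gene, had means of 0.10, -0.37 and 0.02 in null, su(Hw)/+ and Df/+, so the stretch was not continuous.

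CG31820 had the lowest values of the stretch. It gave -1.18, -1.34, -0.46 and -0.64 in the null, -1.77, -1.57, -2.41 and -1.75 in su(Hw)/+ and -0.87, -0.44, 0.00 and -1.41 in Df/+. All su(Hw)/+ arrays were below every other array, and Df/+ minus su(Hw)/+ was 1.20 ± 0.30 (SE, adjusted p = 0.141), which did not pass. CG18063 gave -1.48, -1.05, -0.40 and -0.75, -0.96, -0.79, -1.72 and -1.11 and -1.18, -0.90, -0.89 and -1.52 in the same order, below 0 on all 12 arrays with overlapping groups. CG12448 was likewise below 0 on all 12 arrays, between -1.35 and -0.45, and was called in each genotype. None of these genes was called in the null against the heterozygotes.

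A protamine gene and 1 of 2 other testis markers tested were called lower in su(Hw)/+ larvae. ProtA, a sperm protamine gene of the region at place 110, gave -1.45, -0.14, -0.57 and 0.09 in the null, -2.12, -1.34, -1.71 and -0.80 in su(Hw)/+ and -0.91, 0.17, -0.08 and -0.93 in Df/+, with su(Hw)/+ alone called (adjusted p = 0.00135). Its Df/+ minus su(Hw)/+ difference was 1.05 ± 0.37 (SE, adjusted p = 0.312). Of 6 testis markers listed, 1 is ProtA itself under its older symbol Mst35Ba, and 4 others were found by name on the array. Among those, dj, a sperm tail gene, had means of -0.83, -1.6 and -0.73 in null, su(Hw)/+ and Df/+ and was called lower in each. The marker betaTub85D had means of 0.27, 0.20 and 0.41 in the same order, on 3 arrays each. For can the means were -0.16, -0.14 and 0.01 on 3, 2 and 2 arrays. For aly they were 0.40, -0.37 and -0.14 on 1, 2 and 1 arrays. The part of testis RNA in the low stretch was not tested.

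PRL-1, a gene for a small prenylated phosphatase at place 205, followed a different pattern. Its values were -1.39, -1.29, -1.92 and -1.12 in the null, -0.42, 0.09, -0.47 and 0.14 in su(Hw)/+ and -1.58, -1.06, -2.23 and -0.75 in Df/+. Null and Df/+ overlapped fully and every one of their arrays was below every su(Hw)/+ array. Both were called against the pool (adjusted p = 0.000359 and 0.00111), while Df/+ minus su(Hw)/+ was -1.24 ± 0.30 (SE, adjusted p = 0.121) and passed with a dye term or a replicate block (adjusted p = 0.0147 and 0.016). Its null minus heterozygote difference of -0.65 (adjusted p = 0.225) also passed under these settings (adjusted p = 0.044 and 0.041).

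EndoGI, next in the list at place 206 and the gene for an inhibitor of endonuclease G, was on the other side. It gave 0.81, 1.41, 0.58 and 1.32 in the null, 0.50, 0.65, 0.29 and 0.98 in su(Hw)/+ and 0.36, 0.25, 0.60 and 0.72 in Df/+ larvae. All 12 values were above 0 and all 3 genotypes were called, the Df/+ call being lost in 7 of 12 refits without 1 array. The null and heterozygotes overlapped, at a difference of 0.49 ± 0.19 (SE, adjusted p = 0.21). Adjacent genes of opposite sign thus stood at the end of the low stretch.

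**Figure D4:**
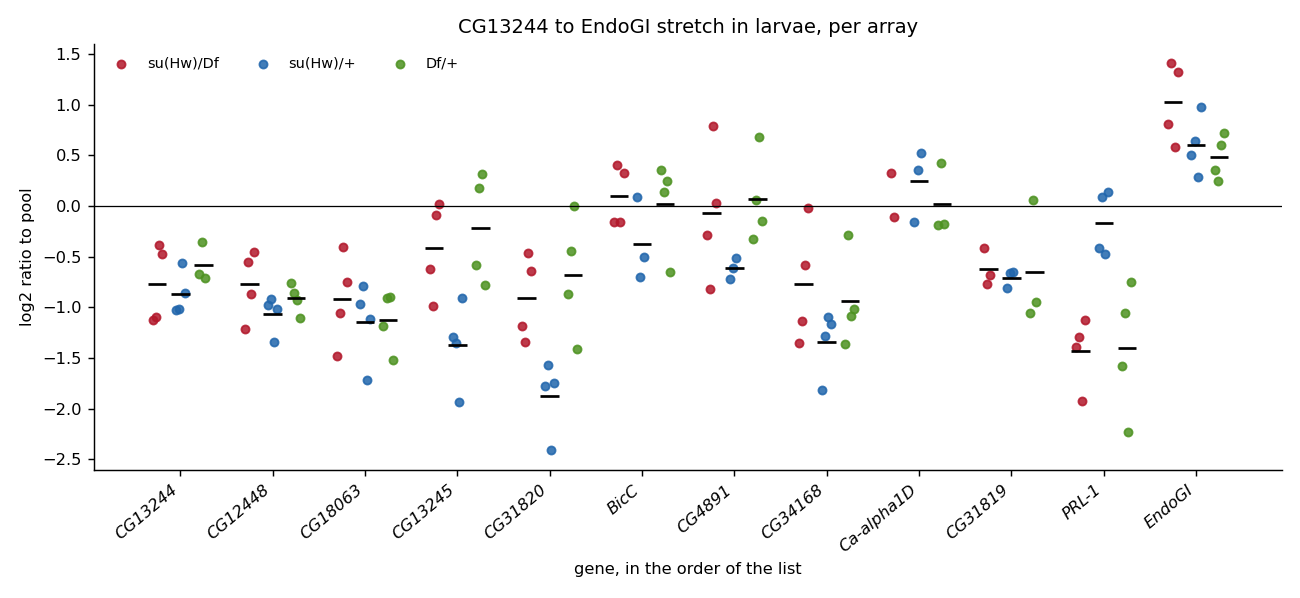
Log2 ratio to the pool on each larval array for tested members from CG13244 to EndoGI in listed order, with black bars for means of at least 3 arrays. CG12448 and CG18063 lie below 0 on all 12 arrays, the null and Df/+ points of PRL-1 lie below its su(Hw)/+ points, and all EndoGI points lie above 0.

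Other runs were confined to su(Hw)/+ larvae among the comparisons with the pool, and each was of 3 genes. Pgant35A, spel1 and elB, which encode a glycosyltransferase, a mismatch repair protein and a zinc finger protein, lay between 0.74 and 0.97 there, with spel1 and elB called. The corresponding null means were -0.39, 0.04 and 0.92. CG4218, CG3473 and CG15282 lay between -0.88 and -0.56, all called, with null means of -0.41, -0.37 and -0.22. Df/+ against su(Hw)/+ gave 1 run, of CG15279, CG4480 and ProtA between 0.51 and 1.05, with none of the 3 called.

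Along the whole list, 21 of 146 tested members (14.4%) stood in runs in the null against the pool, and 248 of 7720 genes (3.21%) did so over the rest of the genome in the same count. In su(Hw)/+ it was 11 of 133 (8.27%, rest 3.08%) and in Df/+ 4 of 140 (2.86%, rest 1.71%). Neighbouring tested members had the same sign in 60.8% of 143 pairs in the null and in 54.5% of 7714 pairs elsewhere. For the null against the heterozygotes the share was 61% of 118 pairs, beside 51.1%, and 3 of 120 members stood in a run. These shares are descriptions with no test, since neighbours share gene families and libraries.

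Single genes of other roles also changed. Among metabolic genes b, an aspartate decarboxylase that makes beta-alanine for cuticle pigment, was higher in every genotype: 0.87, 0.44, 0.55 and 1.30 in the null, 0.83, 0.94, 0.77 and 0.81 in su(Hw)/+ and 0.54, 1.0, 0.62 and 0.43 in Df/+, above 0 on all 12 arrays. CAH1, a carbonic anhydrase gene, had means of 0.65, 0.84 and 0.40, of which the null and su(Hw)/+ were called. In the metabolic list 2 of 6 tested members were called higher and 1 lower in the null, where 14.5% of all probes were called higher and 13.2% lower.

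Of 12 signalling and trafficking genes, 3 were called lower in the null and none higher, where 13.2% of all probes were called lower. These were PRL-1, Rab14 and cni. The GTPase gene Rab14 had means of -0.59, -0.63 and -0.46 in null, su(Hw)/+ and Df/+ larvae, and cni, whose product helps cargo leave the endoplasmic reticulum, had -0.75, -0.83 and -1.06, all called. GMF, an actin regulator gene at place 216, resembled PRL-1 with means of -0.75 and -0.93 in null and Df/+ (both called) and -0.19 in su(Hw)/+, although its Df/+ minus su(Hw)/+ difference had an adjusted p of 0.461.

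Transcription factor and cell cycle genes held single calls. The zinc finger gene elB had 1.33, 0.39, 1.45 and 0.50 in the null, 0.83, 0.84, 1.33 and 0.88 in su(Hw)/+ and 0.47, 0.56 and 0.27 on 3 Df/+ arrays, and its null and su(Hw)/+ means of 0.92 and 0.97 were called. Its paralogue noc had means of 0.36, 0.13 and -0.15, none called. In the Snail family esg was tested and was lower in the null (mean -0.52, adjusted p = 0.0406), a call lost in 6 of 12 refits without 1 array, while wor and sna had too few values. Of 8 replication, repair and cell cycle genes 0 of 8 were called in the null in either direction. The replication gene chif was lower in su(Hw)/+ and Df/+ at -0.59 and -0.72 and stood at -0.08 in the null.

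CG11865, an astacin-type metalloprotease gene, had null values of -0.89, -0.83, -0.77 and -0.92 within a narrow range, against 0.87, -0.44, 0.39 and 0.34 in su(Hw)/+ and -0.91, -0.26, -0.59 and 0.26 in Df/+. Null and Df/+ overlapped, and the difference from both heterozygotes was -0.81 ± 0.24 (SE, adjusted p = 0.0962). It was the only one of 3 tested astacin genes to be called against the pool. Of 8 germline genes 6 were tested in the null and none was called. Of 7 genes for receptors and adhesion proteins of neurons rk alone was tested in the null. None of the 4 mitochondrial protein genes, all tested, was called there. Of 6 serine proteases and 3 Ance peptidases 1 each was tested and neither was called, and no serine carboxypeptidase or beaten path gene had enough values.

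A further set of members, chosen after their values were seen, covers further calls in null larvae. The Arp2/3 subunit gene Arpc1 gave 0.88, 0.98, 0.80 and 0.37 in the null, with a mean of 0.76 (adjusted p = 0.0101) and heterozygote means of 0.39 and 0.25. The called probe of wb, a laminin alpha chain gene, gave 0.97, 1.69, -0.16 and 0.66 in the null, around a mean of 0.79 (adjusted p = 0.025), with heterozygote means of -0.22 and 0.06. The spread of wb was wide, 1 null array lying below 0, and neither gene was called against the heterozygotes. Mtr4, an RNA helicase gene of the nuclear exosome pathway, had means of 0.53, 0.11 and 0.56 in null, su(Hw)/+ and Df/+, with the null and Df/+ called. The remaining null calls had means of 0.53 for CG18507 and between -0.63 and -0.35 for CG15256, CG15258, CG15278, CG16853, CG5861 and TM9SF4. The lowest null mean of the list, -1.66 for nur, was not called (adjusted p = 0.172), since its null arrays ran from 0.72 to -4.81 and its heterozygote arrays from 1.63 to -2.67.

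At the kuz end several members were low in the heterozygotes and not in the null. For ics the arrays gave -0.38, 0.23, -0.27 and -0.24 in the null, -0.37, -0.43, -0.76 and -0.71 in su(Hw)/+ and -0.86, -0.60, -1.05 and -0.74 in Df/+. Both heterozygotes were called lower than the pool, the null was not (adjusted p = 0.376), and the null minus heterozygote difference was 0.53 ± 0.16 (SE, adjusted p = 0.0925). CG9263 had means of -0.18, -1.03 and -0.81 in the same order, with a difference of 0.74 ± 0.23 (SE, adjusted p = 0.113). CG9254, between them in the list, was called in su(Hw)/+ alone, at -1.17, with -0.21 and -0.04 in the null and Df/+. CG33307, next to CG8997, came close to a call on the high side, with null values of 0.41, 0.86, 0.64 and -0.25, heterozygote means of -0.38 and -0.91 and a difference of 1.06 ± 0.27 (SE, adjusted p = 0.061), which passed with centred arrays or a dye term (adjusted p = 0.0283 and 0.0236).

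Genes that stand near the ends of the region or in its middle and are well known stayed near the pool. The null larval values were -0.22, -0.20, -0.32 and 0.00 for kuz, -0.23, 0.89, -0.74 and 0.46 for the G1 cyclin gene CycE and 0.34, -0.12, -0.03 and 0.25 for cact. All 3 had values on both sides of 0 or at it, and the adjusted p was 0.449, 0.796 and 0.504. Their null minus heterozygote differences were -0.10, 0.09 and -0.12. CG18095 had means of 0.30 and 0.03 in su(Hw)/+ and Df/+ larvae and too few null values, and DIP-kappa and CG31771 had values on 2 larval arrays each.

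In wing discs far fewer members were measured and few were called. The null against both heterozygotes called 0 of 58 members (2 at an unadjusted p under 0.05), where 0.0901% of all 5550 probes were called, and against the pool 2 of 75 were called, both lower, where 0.873% of all 7218 were called and 0.526% were lower. In su(Hw)/+ 2 of 76 were called, both lower (0.595% of all probes called, 0.503% lower), and in Df/+ 2 of 87, both lower (0.163% called, 0.136% lower). The plain t-test called 0 of 130, 1 of 107 and 2 of 137 disc members in null, su(Hw)/+ and Df/+, where it called 0.521%, 0.452% and 0.318% of all probes. The same pair of genes, UK114 and CG34166, made up the 2 calls in each genotype, and the 3 comparisons share the pool. The su(Hw)/+ count fell to 1 without su(Hw)/+ replicate 1, and the Df/+ count to 1 without Df/+ replicate 2 and to 0 without Df/+ replicate 4. No run formed in any disc comparison. Neighbouring members had the same sign in 48.6% of 74 pairs in the null against the pool, and in 52.9% elsewhere.

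UK114, a gene of the RidA family of imine deaminases at place 139, gave -0.79, -0.41, -1.39 and -1.0 in null discs, -1.55, -1.66, -1.82 and -1.37 in su(Hw)/+ and -0.81, -1.28, -0.88 and -1.40 in Df/+. All 12 values were below 0, with su(Hw)/+ lowest on average and 1 of its arrays above the lowest null and Df/+ arrays. The means against the pool were -0.90 ± 0.16 (SE, adjusted p = 0.0102) in the null, -1.60 ± 0.16 (SE, adjusted p = 7.48e-05) in su(Hw)/+ and -1.10 ± 0.16 (SE, adjusted p = 0.00648) in Df/+. In larvae its means were 0.13, 0.11 and -0.04.

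CG34166, at place 99, gave -0.72, -0.60, -0.66 and -1.30 in null discs, -1.07, -0.58, -0.77 and -1.49 in su(Hw)/+ and -0.98, -0.92, -1.15 and -1.53 in Df/+. These too were below 0 on all 12 arrays and overlapped among genotypes, with a null mean of -0.82 ± 0.17 (SE, adjusted p = 0.029). The larval means were -0.17, -0.09 and -0.50 and none was called. The null calls of both genes rested on the shared estimate of spread: with only the null disc arrays in the fit neither passed. Without null disc replicate 4 neither passed, without null disc replicate 1 or 2 CG34166 did not, and without null disc replicate 3 UK114 did not (adjusted p up to 0.218 and 0.0669).

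Fat body markers were also low in the disc samples relative to the pool. The 3 on the array (Lsp2, Fbp1 and Fbp2, of 6 listed) had a list median of -1.86 in the null, -2.7 in su(Hw)/+ and -1.66 in Df/+, with per-array medians from -5.02 to 0.31 over all 12 arrays, and 1 of the 3 was called in the null and 1 in su(Hw)/+. The part of fat body RNA in the values of UK114 and CG34166 was not tested. The wing disc markers vg, nub, ap, dpp, ptc and en were all measured in discs, none called.

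EndoGI was again high in discs. It gave 0.71, 1.67, 0.71 and 0.44 in null discs, 0.37, 0.49, 0.26 and 0.86 in su(Hw)/+ and 0.33, -0.51, 1.08 and 0.92 in Df/+, above 0 on 11 of 12 arrays, with null mean 0.88 ± 0.24 (SE, adjusted p = 0.151). Among members with at least 3 null disc values CG15282 had the largest mean, at 0.43, 1.28 and 1.14 on 3 arrays, and did not pass (adjusted p = 0.151), though it did with a replicate block (1.21, adjusted p = 0.0357). The disc values of CycE, kuz and cact in the null were spread around 0, with means of 0.25, 0.26 and 0.08.

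**Figure D5:**
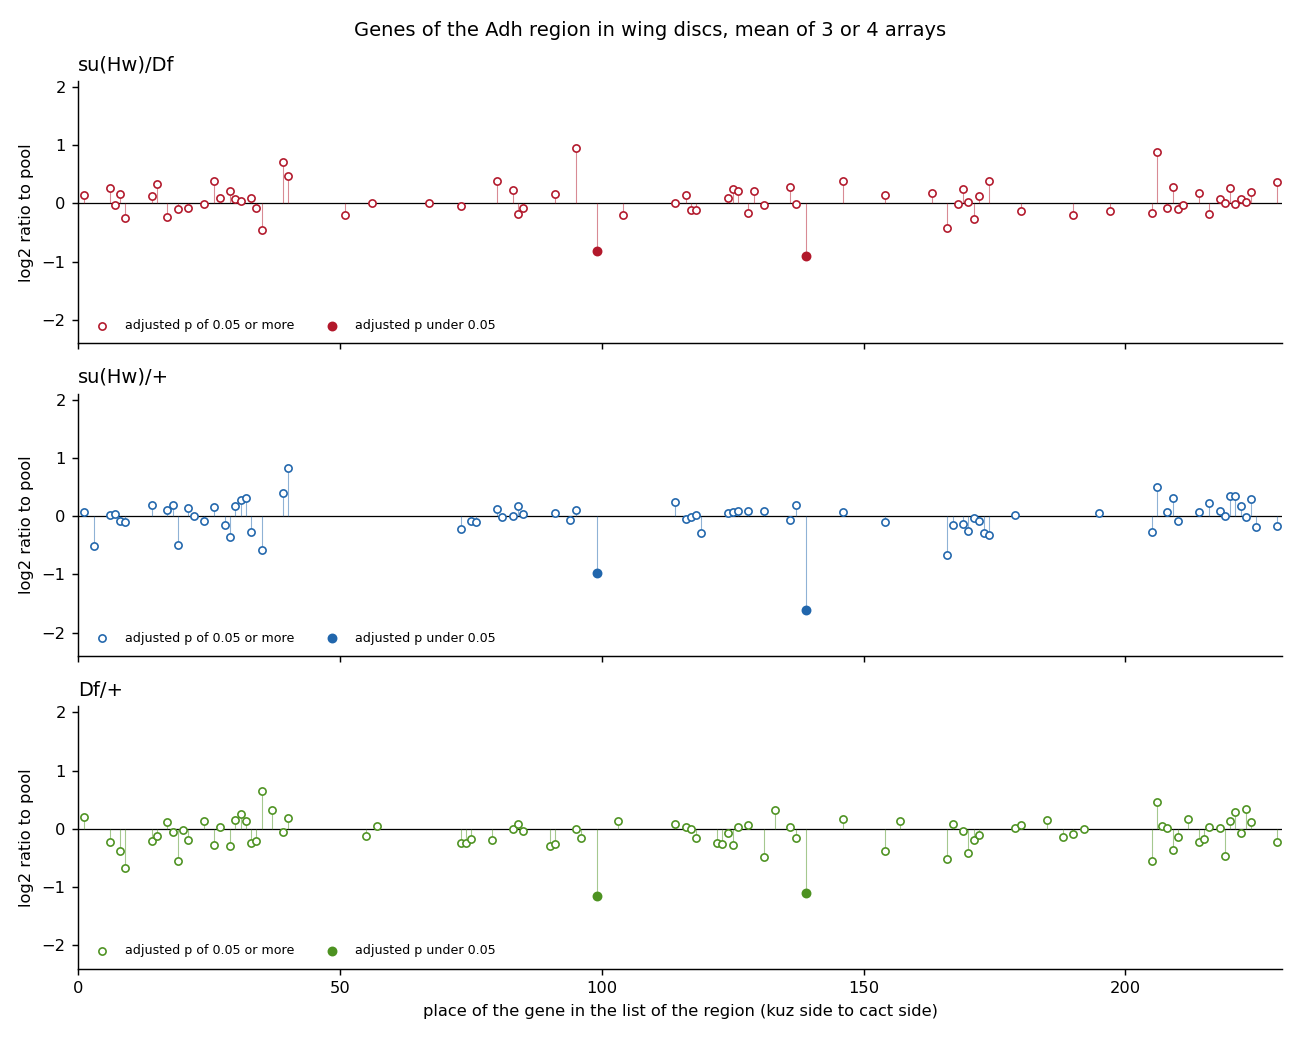
Mean log2 ratio to the wild-type pool in wing discs (vertical axis) for the genes of the Adh region in listed order (horizontal axis), 1 panel per genotype, with filled points for adjusted p under 0.05. The 2 filled points in each panel are CG34166 and UK114, and no run of 3 neighbours past 0.5 formed.

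The larval changes could be set against discs for few of the called genes. Of the 7 genes called in larvae against both heterozygotes, CG8997 alone had enough disc values, at -0.43, -0.43 and -0.51 on 3 null arrays, -0.54, -0.40 and -0.78 on 3 su(Hw)/+ arrays and -0.45, 1.06, 1.10 and 0.92 on the Df/+ arrays. Null and su(Hw)/+ discs were both below 0, and 3 of 4 Df/+ discs were above. The 4 midgut markers on the array had per-array medians in discs from -1.28 to -0.03 in the null. These medians ran from -1.46 to 0.03 in su(Hw)/+ and from -0.27 to 2.44 in Df/+. None of the midgut markers tested in discs was called against the pool. The part of midgut RNA in the disc values of CG8997 was not tested. The null minus heterozygote difference of CG8997 in discs, -0.50, was not called. A single model of all 24 arrays, testing whether this difference changed between larvae and discs, called 0 of 57 members and 0 of all 5105 probes, with esg and PRL-1 the 2 members at an unadjusted p under 0.05 (smallest adjusted p = 0.561). For Df/+ against su(Hw)/+ 0 of 125 larval members were called (20 at an unadjusted p under 0.05), where 0.272% of all probes were called, and 0 of 63 disc members (5 unadjusted), where 0.0169% were.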

How the data were processed

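Log2 ratios of genotype to wild-type pool were used as deposited: the authors found spots with Dapple, normalised the 12 arrays of each tissue together with VSN and turned the dye-swapped ratios, so values are not centred on 0. The labels call the arrays of a genotype independent biological replicates. The files give no counts or depths, so precision rests on the number of arrays. Control probes printed in 3 or more spots (714 of 15158 probes) were left out, spots of a probe were averaged, and probe names were updated through the annotation. The members and gene lists were chosen with earlier results of these data known.

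The 12 arrays of a tissue entered a single limma fit (version 3.58.1, run in R 4.3.3) whose terms were the 3 genotypes. Probes lacking 3 values in a compared genotype were dropped, and 2-sided p-values were adjusted by Benjamini-Hochberg over every probe tested. SE is the moderated standard error and n is 4 arrays per genotype unless stated. Fits were tested on simulated data. A run is at least 3 members in list order with the same sign and a size of at least 0.5, members not tested being skipped. Genes were named if called in the null against the heterozygotes, among the 10 largest rises or falls in null larvae with 1 sign on every null array, called in null discs, in a run, in a gene list or named by the study for the region. The label-based and methods' accounts of discs per extraction and of labelling differ, and the labels were followed. Alternatives covered centring, a dye term, a replicate block, the filter on values, control probes kept, only the genotypes compared, a plain t-test, other run sizes and leaving out each array. Python 3.11.15 with pandas 2.3.3 was used.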

Additional observations from a re-analysis of the deposited data

Results flagged for a closer look

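Among 127 groups of 4 arrays of the named genes, 11 held 1 array that stood apart from the other 3 by Dixon's criterion, 9 in larvae and 2 in discs. Chance flags about 1 in 20 groups. CG4218, a gene of a low run in su(Hw)/+, was picked out in all 3 larval genotypes, each time at replicate 1: -1.39 in the null where the others lay between -0.14 and -0.02, 0.09 in su(Hw)/+ where the others lay between -1.23 and -1.15, and -0.56 in Df/+ where the others lay between -0.67 and -0.66.

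In the cluster of CG8997, that gene stood at -0.59 in null larval replicate 1 (others -0.85 to -0.83), and CG7953 at -0.88 in null larval replicate 2 (others -0.67 to -0.64). Vajk3 was lower in replicate 4 of both null and Df/+ larvae, at -1.57 (others -1.19 to -1.12) and -0.85 (others -0.53 to -0.50). NimC3 was at -0.38 in su(Hw)/+ larval replicate 2, the others being between -0.03 and 0.01. The value of elB was 1.33 in su(Hw)/+ larval replicate 3, above the others at 0.83 to 0.88.

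In discs CG8997 was at -0.45 in Df/+ replicate 1, against 0.92 to 1.10 on the other arrays, and CG34166 was at -1.30 in null replicate 4, against -0.72 to -0.60. What set these arrays apart was not tested.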

How the results depend on the processing

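In larvae the null against both heterozygotes gave 7 calls and 5 to 7 when 1 array was left out. A dye term raised this to 3 higher and 6 lower. Over all 8197 probes it gave 183 higher and 225 lower, in place of 89 and 144. Against the pool the dye term gave 20 members higher and 26 lower in the null, 21 and 27 in su(Hw)/+ and 15 and 29 in Df/+. Over all probes these counts rose too, from 1383 higher and 1263 lower to 1767 and 1621 of 9554 in the null. In su(Hw)/+ they rose from 1303 and 1219 to 1752 and 1487 of 8907. In Df/+ they rose from 910 and 997 to 1292 and 1446 of 9699. Against the pool the counts of 41, 42 and 35 for null, su(Hw)/+ and Df/+ ranged from 27 to 41, 28 to 43 and 20 to 36 when 1 array was left out, the lowest null count being without null replicate 2 and the lowest Df/+ count without Df/+ replicate 2. With only the genotype compared in the fit, null and Df/+ gave 25 and 23, which also leaves fewer arrays for the spread. The counts over all probes fell in these fits too. The plain t-test gave 10, 20 and 12, and 0, 8 and 0 after Benjamini-Hochberg adjustment.

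In discs the 2 null calls became 0 with only the genotype compared, 0 by the plain t-test, 0 after its adjustment, and 0 to 2 when 1 array was left out (0 without null replicate 4, 1 without any other null replicate). The 2 su(Hw)/+ calls became 1 by the t-test, 0 after adjustment and 1 to 3 without 1 array (1 without su(Hw)/+ replicate 1). The 2 Df/+ calls became 0 after adjustment and 0 to 3 without 1 array (0 without Df/+ replicate 4, 1 without Df/+ replicate 2). Df/+ against su(Hw)/+ in discs gave 0 to 1, the 1 without Df/+ replicate 1.

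Same-numbered arrays of different genotypes share the dye. Their deviations had a median correlation of 0.21 in larvae and 0.18 in discs, and the lowest were -0.03 and -0.12. Arrays of the same dye and another number had medians of 0.25 and 0.26, and arrays of opposite dye -0.19 and -0.17. The shared number thus gave no higher median than the shared dye, and it was not used to pair the samples. With the replicate block the larval counts were 7, 51, 44 and 43 in the same order. Over all probes it gave 122 higher and 164 lower of 8197 in the null against both heterozygotes. Against the pool it gave 1699 and 1538 of 9369 in the null, 1659 and 1430 of 8824 in su(Hw)/+ and 1201 and 1322 of 9452 in Df/+. All were above the all-probe counts without the block. Df/+ against su(Hw)/+ went from 0 to 2 member calls (CG7916 and PRL-1), or to 1 with a dye term. In discs the block called 0, 3, 2, 3 and 0 members.

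Members in runs in the null against the heterozygotes went from 3 to 12 at a size of 0.3, 0 at 0.8 and 6 with centred arrays. Against the pool the 21 became 33 at 0.3, 5 at 0.8 and 11 where an untested member ends a run. For the named genes 1743 refits kept direction and side of the threshold, 46 fell short of it, 10 newly passed it and 0 reversed. Disc arrays held values for as few as 51 of 229 members, which limits every disc count.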
